A study of Mus musculus with 27 samples.

Results

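Axon guidance ligands and receptors were followed in the olfactory mucosa, the tissue at the back of the nasal cavity that holds the odor-sensing neurons. The members were the genes whose array symbol begins with Epha, Ephb, Efna, Efnb, Sema, Plxn, Nrp1, Nrp2, Robo, Slit1, Slit2, Slit3, Ntn or Unc5, together with Dcc. Efna5 was left out. This gave 66 genes of 16675 named on the array, read by 90 of its 29922 probes, and the brightest probe stood for a gene with several. Unc50 and Unc5cl matched by prefix only: neither is a netrin receptor. Ntn2l is the older symbol of Ntn3.

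All samples came from female FVB mice at 25 days of age. The occluded group is mucosa behind a nostril closed by cautery (unilateral naris occlusion), and the open group is mucosa from the other side of those mice. The normal group comes from other mice. Per the treatment protocol these received a sham cautery, while the design text calls their mucosa untreated. The labels name no transgene or deletion, and the age at surgery is not stated in them. Each group had 3 biological replicates with 3 arrays each, 27 arrays in all. The occluded and open sides of a mouse share its blood and its handling. The labelled tissue was checked against defining markers. The 6 measured genes of mature olfactory neurons, Omp among them, had mean log2 values of 14.66 to 15.17 over the 9 replicates. The 7 of sustentacular (supporting) cells had 12.89 to 13.68, with Cbr2 and Gstm1 among them saturated on 27 of 27 arrays.

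Guidance cues steer growing axons by attraction or repulsion. Ephrins are membrane-bound ligands of the Eph receptor tyrosine kinases, and most secreted class 3 semaphorins act through neuropilins and plexins. Slits act through Robo receptors, and netrins through Dcc and Unc5 receptors. Olfactory neurons are replaced throughout life, and the axons of neurons that use the same odor receptor converge on common glomeruli in the olfactory bulb. Neuropilins, Robo2, semaphorins and the ephrin-A system take part in that wiring, and in mice some of these molecules are known to follow neuronal activity. Many of the same cues also act on blood vessels and on epithelia.

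The values given are log2 intensities after quantile normalization, averaged over the 3 arrays of a replicate, and differences are on the log2 scale, followed by the standard error (SE). Of the 66 members, 57 lay above the noise limit of the array (3 times the size of its noise, taken as the root mean square of the negative values) on all 27 arrays, and no member was saturated on any. Sema4b lay below the limit on 27 of 27 arrays and Unc5d on 22, so no change is given for them. Counts and medians over the 66 members still include both. Levels of different genes are not set against each other, because each probe has its own brightness. In whole mucosa, fewer cells of a type and less RNA per cell cannot be told apart.

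Replicate 1 stood apart from replicates 2 and 3 in each group. Of the 66 members, 12 had their lowest value in replicate 1 of all 3 groups, against 14.1% of all probes, and 17 had their highest there, against 18.9% of all probes. Ntn1, a secreted attractant and repellent, shows the pattern. Its values in replicates 1, 2 and 3 were 8.63, 9.85 and 9.96 on the occluded side, 8.84, 9.89 and 10.10 on the open side and 9.16, 9.96 and 10.18 in normal mucosa. The low value of replicate 1 thus recurs in mice that share only the number. For replicate 2 this held for 1 member as the lowest and 1 as the highest (2.7% and 1.83% of all probes), and for replicate 3 for 1 and 3 (2.76% and 2.92% of all probes). The differences of Epha7, Sema3e, Efna4, Efna3 and Ntn4 are therefore also given without replicate 1.

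**Figure D1:**
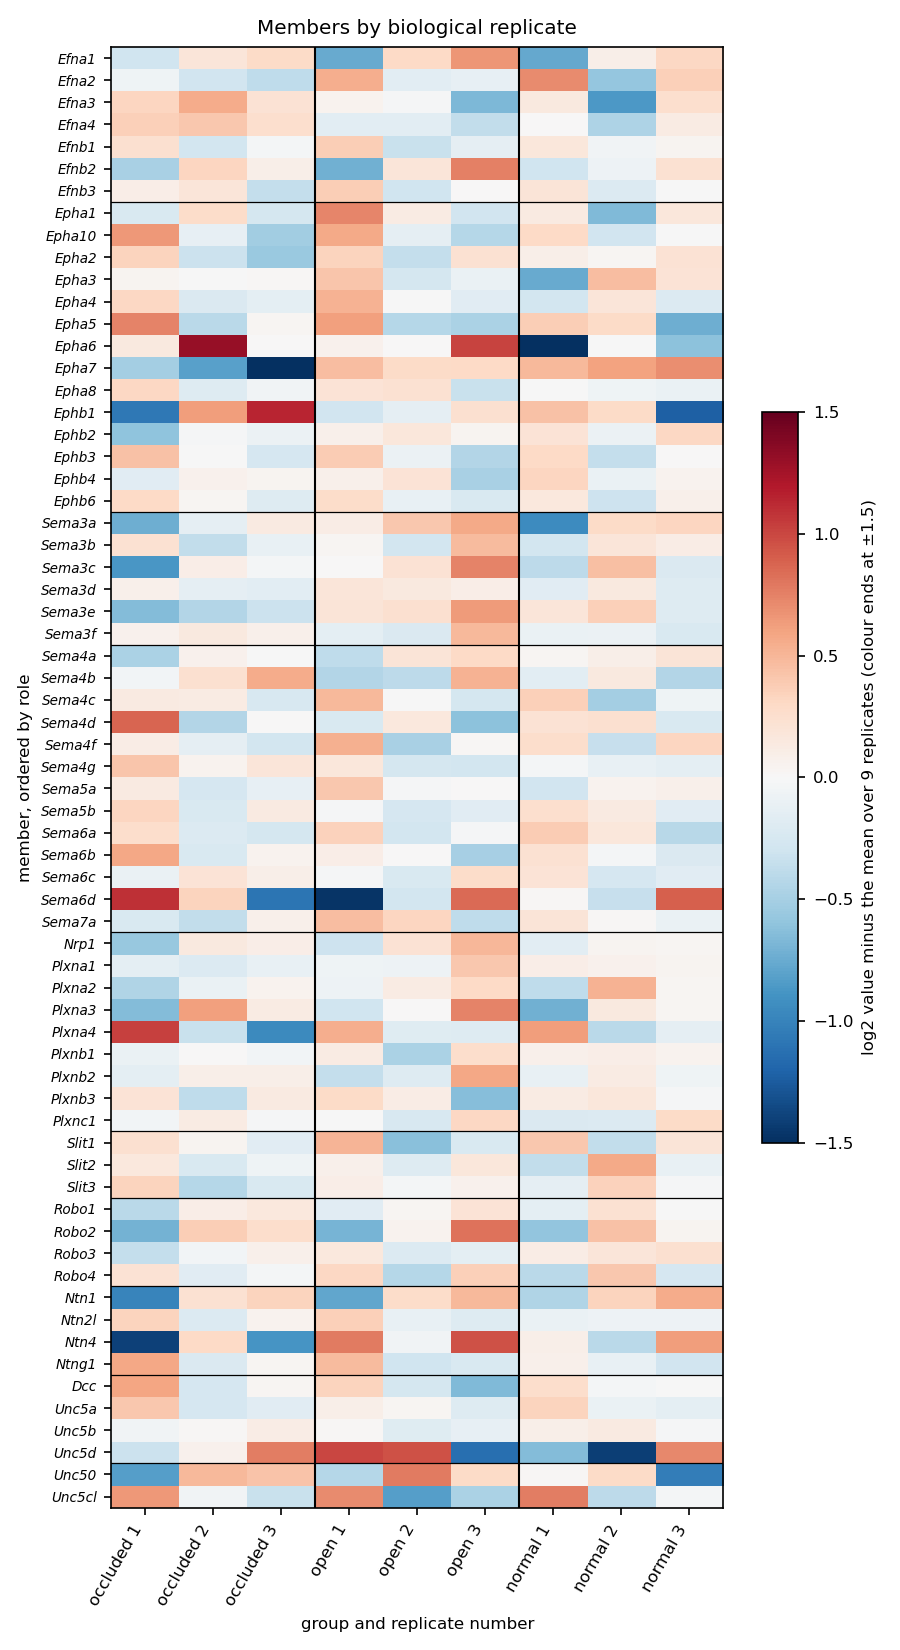
Log2 value of each of the 66 members (vertical axis, ordered by role) in the 9 biological replicates (horizontal axis), as its difference from the member's mean over the 9 replicates. Blue is below and red above that mean, and the colour scale ends at 1.5. Epha7 and Sema3e are blue in the 3 occluded columns, while 12 members have their lowest and 17 their highest value of each group in replicate 1.

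What a closed nostril does to guidance genes in the tissue it serves was asked first, by setting the occluded against the open side. No member passed an adjusted p of 0.05 in limma, while 0.177% of all probes passed as higher and 0.0434% as lower on the occluded side. With an unadjusted p under 0.05 there were 2 members higher and 3 lower, which is 3.03% and 4.55% of the members against 3.56% and 2.63% of all probes. The median difference over the members was -0.05, against 0.0043 over all probes, with 27 members above 0 and 39 below (50.7% and 49.3% of all probes). The groups did not overlap for 2 members that lay higher (3.76% of all probes) and for 5 that lay lower (2.94% of all probes). The smallest p-values belonged to a receptor, Epha7, a secreted ligand, Sema3e, and a membrane ligand, Efna4.

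Epha7, an Eph receptor tyrosine kinase that binds ephrin-A ligands, had the smallest p of all members. Its values were 7.03, 6.73 and 6.03 in occluded replicates 1, 2 and 3, 8.01, 7.83 and 7.85 in open replicates 1, 2 and 3, and 8.03, 8.14 and 8.24 in normal mucosa. The 3 occluded values were the lowest of the 9, with the widest spread in that group. Occluded minus open was -1.30 ± 0.21 (SE, limma adjusted p = 0.059, n = 3 a group), a 2.46-fold lower level, with a 95% interval of -1.77 to -0.83. The pairs of the same number differed by -0.98, -1.10 and -1.82. Epha7 held place 81 by p among all 29922 probes, just short of the 66 that passed. Without replicate 1 the difference was -1.46 (limma adjusted p = 0.98).

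On single arrays the brighter probe of Epha7 showed a gap as well. The 9 occluded arrays lay between 5.27 and 7.16, the 9 open arrays between 7.75 and 8.22 and the 9 normal arrays between 7.92 and 8.47. Repeat arrays are not replicates, but such a gap between all arrays of both sides was seen for 0.237% of all probes in this direction, and Epha7 and Sema3e were the members among them. In the other direction it was seen for 0.328% of all probes, with Efna4 as the only member. A second probe of Epha7 is dimmer. It read 2.97, 3.01 and 3.48 on the occluded side, 4.52, 4.38 and 4.96 on the open side and 4.28, 4.88 and 3.86 in normal mucosa. Its occluded values too lay below all others, and its difference between the sides was -1.46 ± 0.22 (limma adjusted p = 0.054). It lay below the noise limit on 4 of 9 occluded arrays, none of the open ones and 4 of 9 normal ones, so its size is uncertain.

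The sequence before the gene's start is shown for Epha7, Sema3e and Efna4, since these are the members that the comparison turns on. It is the 250 bases upstream of the annotated start in RefSeq for GRCm38.p6, for Epha7 the more upstream of 2 listed starts. The windows are chr4:28812881-28813130 on the + strand for Epha7, chr5:14025026-14025275 on the + strand for Sema3e and chr3:89338029-89338278 on the - strand for Efna4. Capitals mark a GC box (GGGCGG) or a CCAAT box (CCAAT) on either strand.
Epha7: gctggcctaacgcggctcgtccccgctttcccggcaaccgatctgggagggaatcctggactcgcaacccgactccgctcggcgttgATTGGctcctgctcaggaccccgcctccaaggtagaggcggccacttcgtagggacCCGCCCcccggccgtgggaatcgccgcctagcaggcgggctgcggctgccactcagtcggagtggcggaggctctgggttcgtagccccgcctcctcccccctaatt
Sema3e: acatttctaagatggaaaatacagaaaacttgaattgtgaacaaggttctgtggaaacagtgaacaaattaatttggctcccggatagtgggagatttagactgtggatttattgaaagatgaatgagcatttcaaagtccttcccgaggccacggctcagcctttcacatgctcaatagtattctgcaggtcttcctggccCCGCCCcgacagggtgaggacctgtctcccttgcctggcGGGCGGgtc
Efna4: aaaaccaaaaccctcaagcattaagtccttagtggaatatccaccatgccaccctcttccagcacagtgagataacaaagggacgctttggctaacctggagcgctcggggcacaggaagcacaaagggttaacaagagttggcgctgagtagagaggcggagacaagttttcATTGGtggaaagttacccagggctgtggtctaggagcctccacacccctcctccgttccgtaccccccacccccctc
Epha7 has 1 GC box and 1 CCAAT box and a GC content of 69.2%. Sema3e has 2 GC boxes in a window of 48% GC, and Efna4 has 1 CCAAT box. A GC box occurs in 32.7% and a CCAAT box in 33.8% of 32817 windows of this length. The 72 windows listed for 56 of the members held them in 72.2% and 29.2%. The core of the cAMP response element (TGACG), the core of the sites bound by the EBF factors of olfactory neurons (CCCNNGGG) and a homeodomain core (TAATTA), searched on both strands, are not found in these 3 windows. Of all windows they occur in 17.7%, 11.8% and 4.85%. These are matches of letters only.

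Sema3e, a secreted semaphorin that repels axons and growing vessels, came next. Its values in replicates 1, 2 and 3 were 6.58, 6.79 and 6.91 on the occluded side, 7.42, 7.47 and 7.87 on the open side and 7.41, 7.59 and 7.04 in normal mucosa. All occluded values lay below all others. Occluded minus open was -0.83 ± 0.17 (limma adjusted p = 0.16), with a 95% interval of -1.21 to -0.45 and pair differences of -0.85, -0.68 and -0.96. Without replicate 1 it was -0.82 (limma adjusted p = 1). A second probe read 5.24, 6.64 and 6.21 on the occluded side and 6.61, 7.25 and 7.69 on the open side. There the groups overlapped, because open replicate 1 lay below occluded replicate 2, while within each number the occluded side was lower. Its difference was -1.15 ± 0.34 (limma adjusted p = 0.47).

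**Figure D2:**
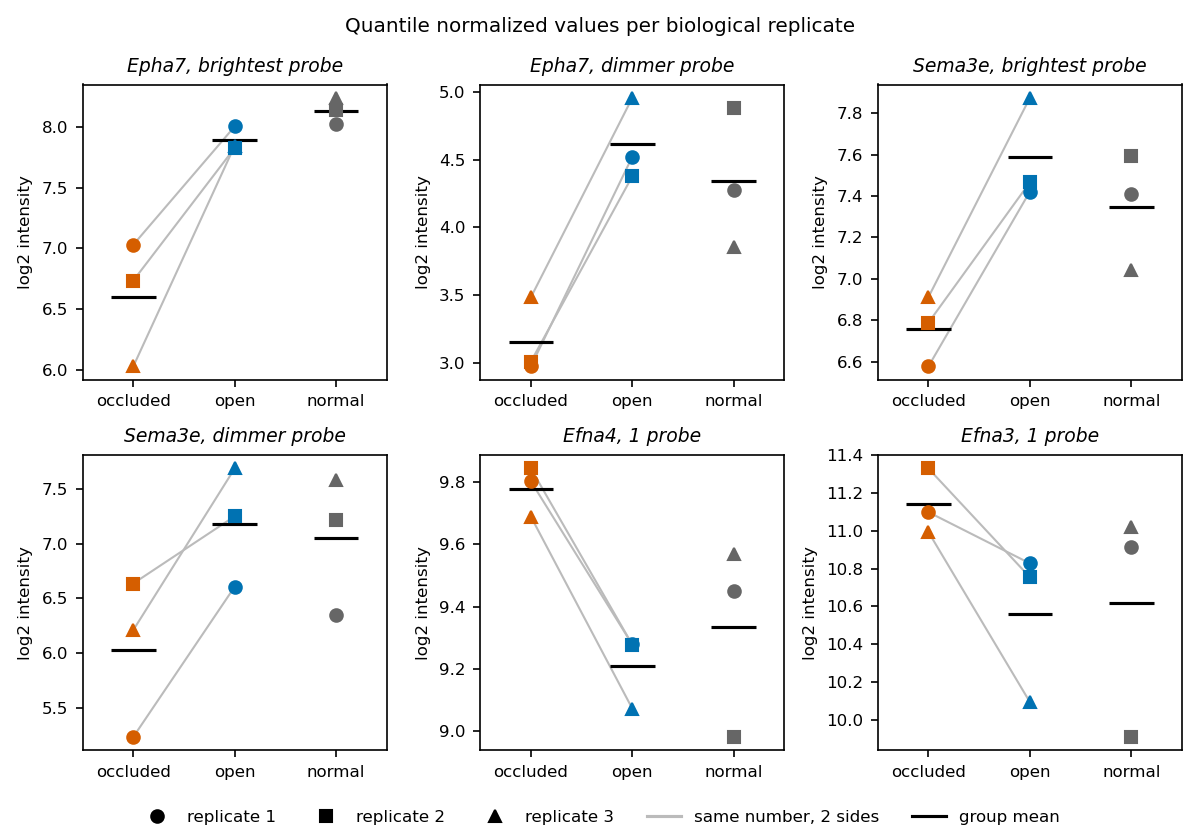
Quantile normalized log2 intensity (vertical axis) of both probes of Epha7, both probes of Sema3e, Efna4 and Efna3 in the occluded, open and normal groups (horizontal axis). Symbols are the 3 biological replicates, grey lines join the sides with the same replicate number and black bars are group means. For Epha7 and the brighter Sema3e probe the 3 occluded values lie below the 6 others, and for Efna4 they lie above them.

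The 2 members that lay higher on the occluded side without overlap (3.03% of the members, 3.76% of all probes) were both ephrin ligands. The 7 ephrins had a median of -0.0075, with 3 above and 4 below 0. Efna4, a GPI-anchored ephrin-A, read 9.80, 9.84 and 9.69 on the occluded side, 9.28, 9.28 and 9.07 on the open side and 9.45, 8.98 and 9.57 in normal mucosa. Its 3 occluded values were the highest of the 9, and the pairs differed by 0.52, 0.57 and 0.62. The difference was 0.57 ± 0.16 (limma adjusted p = 0.40), a 1.48-fold higher level, and 0.59 without replicate 1 (limma adjusted p = 1). Efna3, of the same class, read 11.10, 11.33 and 10.99 on the occluded side and 10.83, 10.76 and 10.10 on the open side, again without overlap (0.58 ± 0.26, limma adjusted p = 0.81). Without replicate 1 the difference of Efna3 was 0.74 (limma adjusted p = 1). In normal mucosa Efna3 read 10.92, 9.91 and 11.02, a range that takes in the open values and part of the occluded ones. The other 5 ephrins differed by -0.33 to 0.01 between the sides. The lowest was Efna2, which lay below the noise limit on 4 of 9 occluded arrays. Efnb1, a transmembrane ephrin, differed by 0.01 with a 95% interval of -0.37 to 0.40, and Efnb2 by -0.10 with an interval of -0.74 to 0.55.

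Marker lists of the cell types in the mucosa were also compared between the sides, and none of their genes passed the adjusted threshold. The mean level of the 6 mature olfactory neuron genes was 14.93 to 15.17 on the occluded side, 14.66 to 14.80 on the open side and 14.73 to 14.78 in normal mucosa. Their median difference between the sides was 0.40, with 6 of 6 above 0, 4 of them with an unadjusted p under 0.05 (3.56% of all probes) and none past the adjusted threshold. Omp, at 0.0031, was saturated on 26 of 27 arrays, so its sign cannot be read. Cnga2, 1 of the 4, was saturated on 3 arrays. Horizontal basal cell genes, markers of reserve stem cells, had a median of -0.29, with 6 of 6 below 0. For 2 of these the unadjusted p was under 0.05 (2.63% of all probes), and none passed the adjusted threshold. Immature neuron genes had a median of -0.19, with 8 of 9 below 0. Endothelial genes had a median of -0.25, with 3 above and 4 below 0. For the other lists the median lay between -0.11 for ensheathing glia and 0.07 for blood and immune cells. The blood and immune list held 1 gene that was higher with an unadjusted p under 0.05 (3.56% of all probes). The part of these markers in the differences of Efna3, Efna4, Epha7 and Sema3e was not tested.

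The remaining Eph receptors had smaller differences, some of them poorly resolved. Apart from Epha7, the 13 of them differed by -0.33 to 0.30. The 95% interval was wide for Ephb1, from -0.79 to 1.38, and for Epha6, from -0.94 to 1.19. Ephb2, which binds B ephrins, read 6.81, 7.40 and 7.32 on the occluded side and 7.49, 7.59 and 7.46 on the open side. The sides did not overlap (-0.33 ± 0.17, limma adjusted p = 0.88), but a second probe of Ephb2 differed by -0.11 ± 0.32. Epha5, a receptor with a part in the olfactory map, differed by 0.22 with a 95% interval of -0.50 to 0.94.

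Of the 6 secreted semaphorins, 5 lay below 0 on the occluded side (49.3% of all probes), with a median of -0.40. Against normal mucosa their median was -0.11 for the occluded side, with 4 below and 2 above 0. For the open side it was 0.23, with 6 above 0. Between the sides a second probe differed by 0.02 for Sema3b and by -0.30 for Sema3d. Sema3a, the classical repellent that acts through Nrp1, read 5.96, 6.56 and 6.83 on the occluded side and 6.80, 7.11 and 7.27 on the open side. Within each number the occluded side was lower, while occluded replicate 3 lay just above open replicate 1 (-0.61 ± 0.29, limma adjusted p = 0.84). In normal mucosa it read 5.75, 6.99 and 7.02, a range that takes in all 3 occluded values and open replicate 1. Sema3c differed by -0.59 ± 0.26 (limma adjusted p = 0.81) with pairs at -0.88, -0.12 and -0.77, and Sema3d by -0.21 ± 0.14 without overlap (limma adjusted p = 0.95). Sema3f, the ligand of neuropilin-2, differed by 0.05 with a 95% interval of -0.35 to 0.46.

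The 13 membrane semaphorins lay between -0.31 and 0.41. Their median of 0.06 includes Sema4b, which cannot be read above the noise, so its sign is not interpreted. Sema4g read 13.12, 12.76 and 12.90 on the occluded side, 12.87, 12.45 and 12.43 on the open side and 12.68, 12.60 and 12.56 in normal mucosa. It was higher on the occluded side in every pair, though the sides overlapped (0.34 ± 0.145, limma adjusted p = 0.79). Sema5b differed by 0.22 ± 0.16 (limma adjusted p = 0.98). Sema7a, a GPI-anchored semaphorin of olfactory axons, differed by -0.31 ± 0.23, with pairs at -0.69, -0.69 and 0.46, and its dimmer probe by -0.99 ± 0.43 (limma adjusted p = 0.80).

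The 8 plexins analysed and Nrp1, receptors of this system, lay between -0.28 and 0.06. Plxnd1 was not among them, so the receptor side is not covered in full. Nrp1, the co-receptor of Sema3a, read 11.05, 11.77 and 11.72 on the occluded side and 11.31, 11.84 and 12.12 on the open side (-0.24 ± 0.20, limma adjusted p = 0.98). The occluded value was lower in each pair, with pairs at -0.26, -0.07 and -0.40, and the groups overlapped. Plxna1, a receptor subunit of class 3 semaphorins, differed by -0.25 ± 0.145 without overlap (limma adjusted p = 0.93). Its probe is dim, with intensities of 13.6 to 46.2 on occluded and 17.1 to 50.7 on open arrays, where noise limits ranged from 11.6 to 24.1. Plxna3 differed by -0.13 ± 0.32 and Plxnc1, the receptor of Sema7a, by 0.00094 ± 0.18. Neuropilin-2 is listed on the array as Npn2, so it is no member by the rule, and its probe lay below the noise limit on 25 of 27 arrays.

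The brightest probes of the Slit and Robo genes had estimates close to 0. The 3 Slits differed by -0.14 to 0.15 and the 4 Robo receptors by -0.08 to -0.04. Robo2, which sorts olfactory axons along the bulb, read 6.80, 7.88 and 7.76 on the occluded side, 6.80, 7.56 and 8.32 on the open side and 6.92, 7.95 and 7.54 in normal mucosa. The groups overlapped, and the 95% interval of the difference ran from -0.84 to 0.68. For Robo1 it ran from -0.44 to 0.30, for Slit1, the ligand of Robo2, from -0.425 to 0.72 and for Slit2 from -0.53 to 0.40. A dimmer probe of Slit2 differed by -0.54 ± 0.42 (limma adjusted p = 0.98).

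In the netrin system Ntn4, a basement membrane netrin, had a wide difference of -1.23 ± 0.435 (limma adjusted p = 0.64). Its values were 2.87, 4.56 and 3.39 on the occluded side and 5.05, 4.22 and 5.23 on the open side, and pair 2 went the other way at 0.34. It lay below the noise limit on 3 of 9 occluded arrays and 1 of 9 open ones, and with values under 16 set to 16 the difference was -0.54. It was -0.75 without replicate 1 (limma adjusted p = 1), -2.01 without replicate 2 (0.11) and -0.92 without replicate 3 (0.79). Ntn1 differed by -0.13 with a 95% interval of -0.88 to 0.61, and its dimmer probe by 0.59 ± 0.305. The receptor Dcc differed by 0.32 ± 0.22 (limma adjusted p = 0.97) and Unc5b by 0.12 ± 0.13, with an interval of -0.17 to 0.42.

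How much could have been missed follows from the intervals. For 53 of the 64 members other than Sema4b and Unc5d, the 95% interval of occluded minus open lay within 1 log2 unit of 0, that is, it left out a change of that size in either direction, and for 14 within 0.5. The interval reached 0.47 to each side at the median over the members. These widths rest on reading equal numbers on both sides as 1 mouse, which cannot be told apart from a shared number. For occluded and for open against normal mucosa, 49 of the 64 intervals lay within 1 and 4 within 0.5, reaching 0.60 at the median. The median absolute difference was 0.15 over the members and 0.16 over all probes. The members with the widest spread between replicates of a group were Sema6d (SD 0.999), Unc5d (0.993), Ephb1 (0.869) and Epha6 (0.776), against a median SD of 0.341 over the members and 0.359 over all probes.

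**Figure D3:**
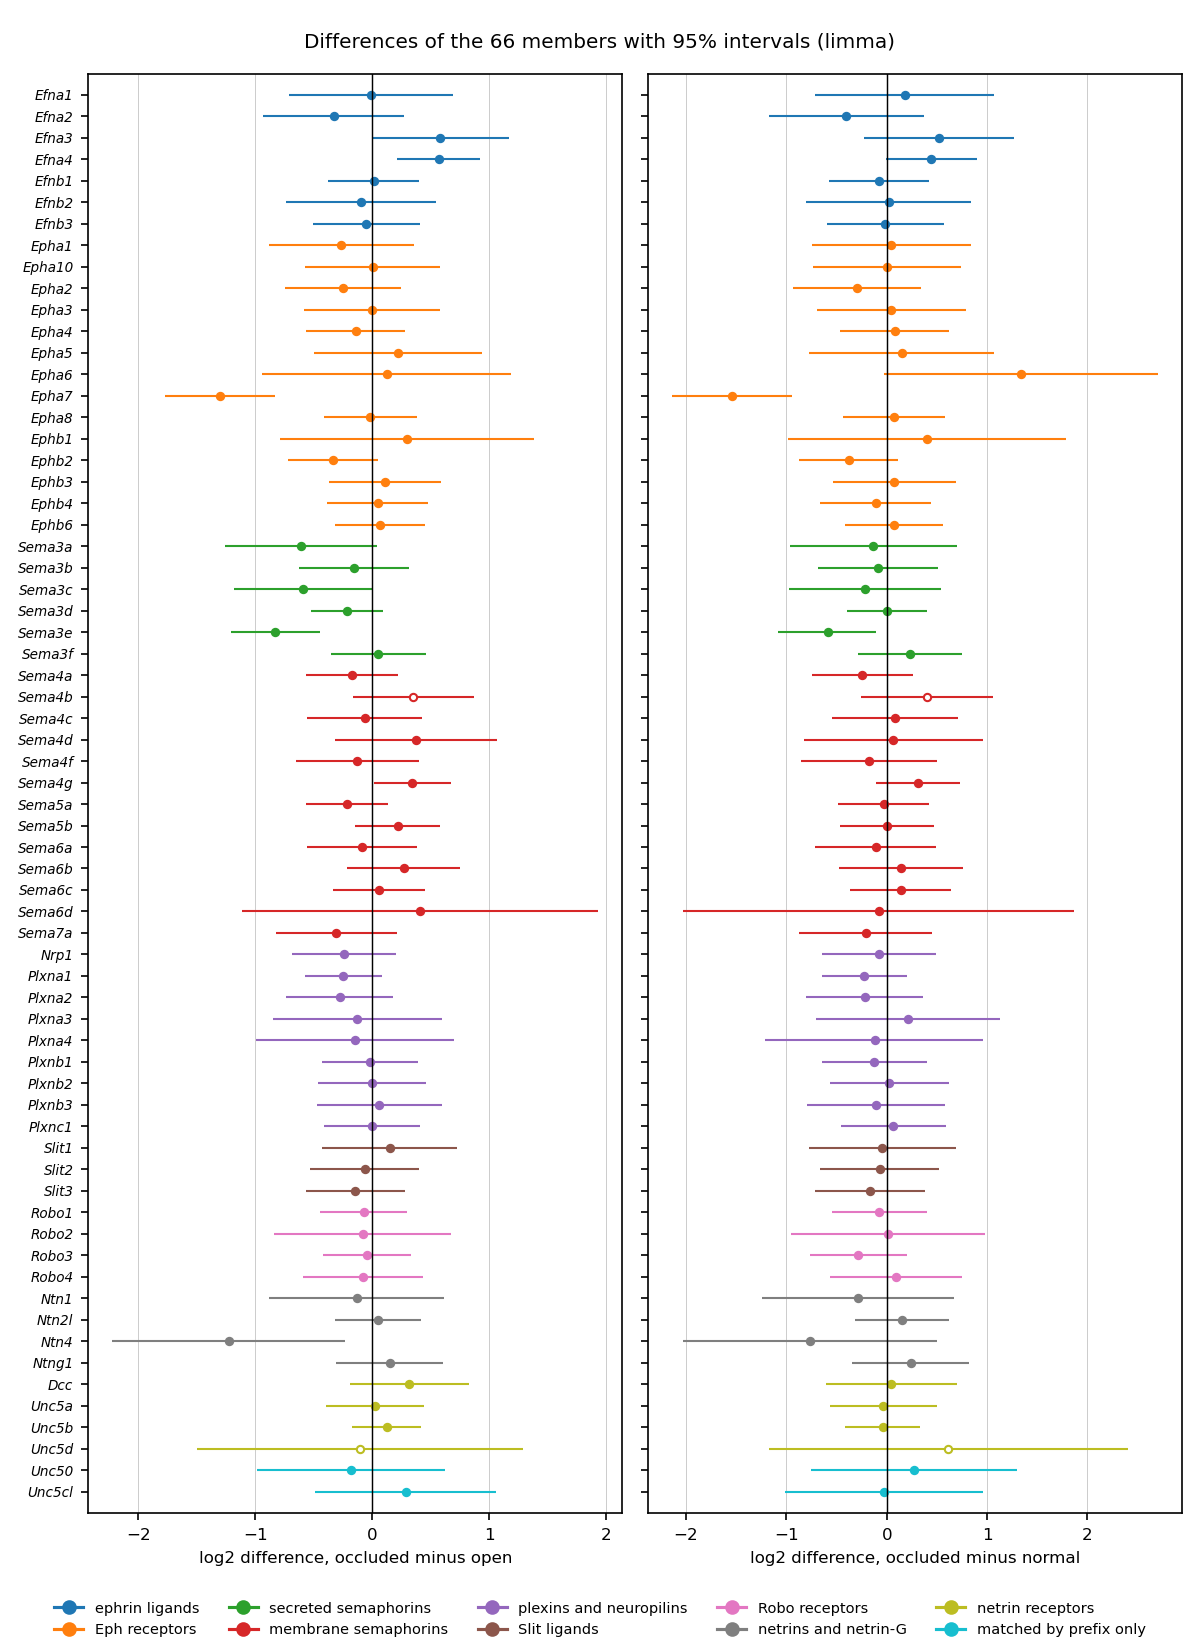
Log2 difference (horizontal axes) of the 66 members, ordered and coloured by role (vertical axis), for occluded minus open on the left and occluded minus normal on the right. Points are limma estimates from 3 replicates a group, lines are 95% intervals and hollow points mark Sema4b and Unc5d, which were mostly under the noise limit. Epha7 lies at -1.30 and -1.54, and most other intervals cross 0.

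Occluded mucosa was next compared with that of the normal mice. Both comparisons share the occluded samples, so their values are given side by side. No member passed in limma, against 0.00668% of all probes as higher and 0% as lower. With an unadjusted p under 0.05 there were 0 members higher, against 1.62% of all probes, and 2 lower, against 1.25%: Epha7 and Sema3e. The groups did not overlap for 4 members that lay higher (3.57% of all probes) and 5 that lay lower (3.09% of all probes). The median over the members was -0.0070, against 0.00625 over all probes, with 33 above and 33 below 0 (51% and 49% of all probes).

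Epha7 was 2.91-fold lower on the occluded side than in normal mucosa, at -1.54 ± 0.26 (limma adjusted p = 0.23, 95% interval -2.14 to -0.94). Its 9 occluded arrays lay below all 9 normal ones, which held for 0.194% of all probes in this direction and for no other member. The dimmer probe differed by -1.19 ± 0.29 (limma adjusted p = 0.65). Without replicate 1 the brighter probe gave -1.81 (limma adjusted p = 0.66). Sema3e differed by -0.59 ± 0.21 (limma adjusted p = 1) and by -1.02 ± 0.43 with its dimmer probe, and its replicate 3 lay only 0.13 below that of the normal group. Without replicate 1 the brighter probe of Sema3e gave -0.47 (limma adjusted p = 1). Efna4 differed by 0.44 ± 0.20 (limma adjusted p = 1), by 0.49 without replicate 1 and by 0.24 without replicate 2. Efna3 differed by 0.53 ± 0.33 (limma adjusted p = 1), by 0.70 without replicate 1 and by 0.0778 without replicate 2.

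Epha6, an Eph receptor of neurons, had the largest positive value of this comparison, 1.34 ± 0.60 (limma adjusted p = 1). It read 4.67, 5.83 and 4.53 on the occluded side, 4.59, 4.52 and 5.54 on the open side and 2.59, 4.52 and 3.91 in normal mucosa. The normal group held the 3 lowest values, and 5 of its 9 arrays lay below the noise limit. With an offset of 50 the difference was 0.38. Sema4g differed by 0.31 ± 0.18, Sema3f by 0.23 ± 0.23, Robo3 by -0.28 ± 0.21, Ephb2 by -0.38 ± 0.22 and Ntn4 by -0.76 ± 0.56, none past the threshold (limma adjusted p = 1 for each). Among the marker lists, mature neuron genes had a median of 0.34, with 5 above 0 and 1, the saturated Omp, below. Immature neuron genes had one of -0.24, with 9 of 9 below 0, bone and cartilage genes one of -0.31, with 6 of 8 below 0, and horizontal basal cell genes one of -0.21, with 5 of 6 below 0. The mean level of the bone and cartilage genes was 11.24, 10.73 and 11.18 in occluded replicates 1, 2 and 3. In normal mucosa it was 10.69, 12.47 and 11.29, so normal replicate 2 stood apart as high. The part of these markers in the differences was not tested.

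The third comparison set the open side, which still receives air, against normal mucosa. No member passed in limma, and neither did any probe of the array in either direction (0% higher and 0% lower). No member had an unadjusted p under 0.05, against 0.789% of all probes as higher and 0.805% as lower. Without overlap were 1 member that lay higher, Epha6 (2.06% of all probes), and 1 that lay lower, Epha7 (2.21% of all probes). On single arrays no member was apart, against 0.0301% and 0.0134% of all probes as higher and lower. The median over the members was 0.02, with 35 above and 31 below 0 (49.1% and 50.9% of all probes). Epha7 differed by -0.24 ± 0.26 with a 95% interval of -0.84 to 0.355, and by 0.02 with the mean of both probes. Sema3e differed by 0.24 ± 0.21 with an interval of -0.25 to 0.73. The brightest probes of the 6 secreted semaphorins all lay above 0 (49.1% of all probes), at 0.07 to 0.48, and each 95% interval crossed 0. Sema3a was at 0.48 ± 0.37, Sema3c at 0.37 ± 0.33 and Sema3d at 0.22 ± 0.17. Second probes gave -0.01 for Sema3b, -0.11 for Sema3d and 0.13 for Sema3e. Among the marker lists, endothelial genes had 7 of 7 above 0 (median 0.14) and horizontal basal cell genes 5 of 6 (0.13). Sustentacular genes had 6 of 7 above 0 (0.12), but Cbr2 and Gstm1 among the 7 were saturated on 27 of 27 arrays, so their signs cannot be read. Bone and cartilage genes had 6 of 8 below 0 (-0.13), with normal replicate 2 again the highest. The part of these lists in the differences was not tested. Robo3 differed by -0.24 ± 0.21, Sema5b by -0.21 ± 0.20, Unc5b by -0.16 ± 0.17 and Dcc by -0.27 ± 0.29 (limma adjusted p = 1 for each).

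Genes that carry guidance signals inside the cell, or that act beside the members at the growth cone, were followed in a list of 40, of which 39 were measured. None passed in limma in any of the 3 comparisons. Between the sides 0 were higher and 2 lower with an unadjusted p under 0.05 (3.56% and 2.63% of all probes), and the median was -0.08, with 16 above 0 and 23 below. The smallest p-values there were those of Cfl1, an actin-severing protein (-1.20 ± 0.48, below the noise limit on 19 of 27 arrays), Vav3, which acts downstream of Eph receptors (-0.39 ± 0.17), and Dpysl3, a collapsin response mediator of young neurons (-0.43 ± 0.22). Against normal mucosa the occluded side gave -0.41 ± 0.21 for Crmp1, -0.53 ± 0.28 for Dpysl3, both collapsin response mediators, and -0.32 ± 0.22 for Mical1, an effector of plexins. The median was -0.06 for occluded and 0.06 for open against normal mucosa, and the open side gave -0.25 ± 0.21 for Crmp1, 0.27 ± 0.23 for Farp1 and -0.42 ± 0.36 for Enah.

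Further probes exist for 21 of the members, 24 probes in all. Of the 23 that can be read above the noise, 12 had the sign of the brighter probe between the sides. Among the members with the lead differences, the second probes of Epha7 and Sema3e had the sign of the first, while Efna4 and Efna3 have 1 probe each. Epha7 was the member with the lowest adjusted p in all but one of the settings tried for the comparison of the sides. Without replicate 2 that was Ntn4.

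**Figure D4:**
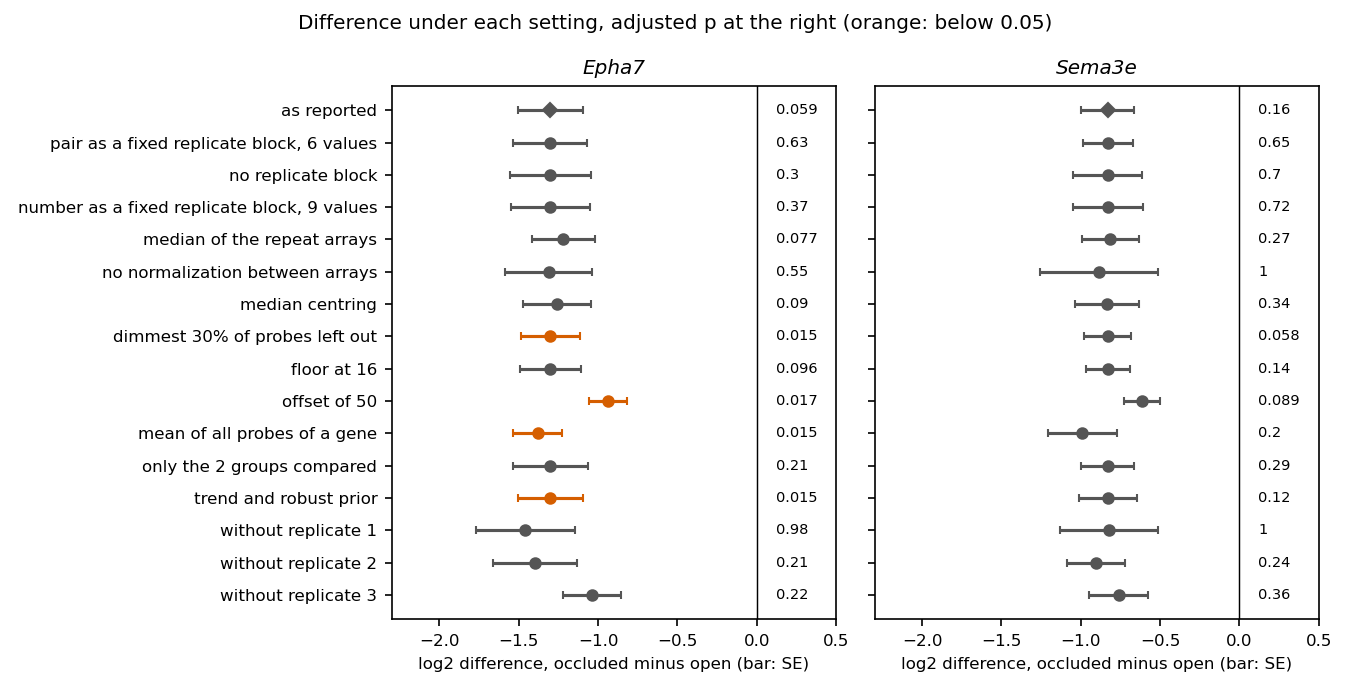
Log2 difference, occluded minus open (horizontal axis, bars are SE), of Epha7 and Sema3e under the reported setting and 15 alternatives (vertical axis), with the adjusted p at the right. Epha7 lies between -1.46 and -0.94 and passes 0.05 in 4 of the 15 alternatives, drawn in orange. Sema3e lies between -0.99 and -0.61 and passes in 0.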

How the data were processed

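The table deposited by the authors holds linear probe intensity values, 1.45% to 3.93% of an array at or below 0. Per the labels' protocols, total RNA was amplified by in vitro transcription and coupled to Cy5, 1 sample per array. How the authors corrected the background or normalized is unstated there. Array medians ranged from 123 to 274 and noise limits from 11.6 to 24.1. The number of mice, 3 replicates a group, limits the precision.

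A floor of 0.912, which is the smallest value above 0, was applied before values were log2 transformed, quantile normalized and averaged over the 3 arrays of a replicate, the number in the title being read as the replicate and the letter as a repeat array. limma 3.58.1 (R 4.3.3, statmod 1.5.0, version 1.17.8 of data.table) fitted the 9 values of the 3 groups for all 29922 probes, each mouse entering as a random block (duplicateCorrelation, 0.389), two-sided, with Benjamini-Hochberg adjustment over all probes. Equal numbers were read as 1 mouse on both sides, from the design text. The correlation of the deviations of both sides over all probes was 0.516, -0.0044 and 0.142 in the 3 pairs. With normal replicate 1, from another mouse, replicate 1 gave 0.353 (occluded) and 0.394 (open). For numbers 2 and 3 the values with normal mucosa lay between 0.0015 and 0.104. A shared mouse and a shared number can thus not be told apart in the block. The fit was tested on simulated data that held no effect of the replicate number. Only the size of the estimated differences had to match there, not the p-values. Gene names came from the array's annotation table, with 8902 probes unnamed here. Ntn5, Ntng2, Plxnd1, Sema3g and Unc5c were not analysed here. The members, lists and tests were chosen with earlier results of these data known. Named were members past the threshold, the 5 smallest p-values in each direction of each comparison (except members under the noise limit on over 6 of 9 arrays in both groups), and 20 genes of olfactory wiring, of which 19 were found; any other gene named was picked with its values in view. The alternatives changed the block, the averaging of arrays, the normalization, the handling of dim probes, the choice of probe, the prior, the samples fitted together, and left out each replicate.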

Additional observations from a re-analysis of the deposited data

How the results depend on the processing

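The count of members past the adjusted threshold between the sides was 0 when a fixed replicate block stood for the pair (6 values) or for the number (9 values), with no replicate block, and without any 1 replicate. Of all 29922 probes, 0 passed under the pair block and without any 1 replicate, 2 under the number block and 3 with no block, against 66 as reported. The count of members was 1 in 4 settings, each time Epha7, where 0.415%, 0.297%, 0.203% and 0.341% of all probes passed, against 0.221% as reported: with the dimmest 30% of probes left out (-1.30, limma adjusted p = 0.015), with an offset of 50 before log2 (-0.94, adjusted p = 0.017), with a gene's probes averaged (-1.38, adjusted p = 0.015) and with a trend and robust prior (-1.30, adjusted p = 0.015). Over all 15 alternatives the adjusted p of Epha7 ran from 0.015 to 0.98, with 0.63 under the fixed pair block. In the comparisons with normal mucosa the count was 0 in every alternative run. Of all probes, 0% to 0.0869% passed there for the occluded side and 0% for the open side. Of 78 named differences, 41 kept their sign in every alternative. A change of sign larger than the spread between replicates was seen in 8 cases. Unc5b against normal mucosa gave 0.0706 for the occluded side without normalization, 0.148 with the mean of its probes, and 0.0906 for the open side with that mean. With a replicate left out, Slit2 ranged from -0.374 to 0.288 for the occluded side and from -0.237 to 0.366 for the open side, the highest without replicate 2. The open side then ranged from -0.0575 to 0.421 for Sema3e, from -0.0836 to 0.338 for Sema3f and from -0.147 to 0.113 for Plxna1, the lowest without replicate 3. The cause was not tested.

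Members with an unadjusted p under 0.05 between the sides numbered 9 with the offset of 50 (5.68% of all probes), 8 with the trend and robust prior (5.72%) and 2 to 7 with a replicate left out (3.21% to 10.4%), against 5 (6.19%). For occluded against normal there were 4 with a floor at 16 (3.12%), with the offset (2.53%) and with the robust prior (2.38%), and 1 without normalization (1.5%), against 2 (2.88%). For open against normal there was 1 under the fixed block for the number (2.72%), with median centring (1.5%) and without each replicate (1.48% to 3.39%), against 0 (1.59%). Members without overlap numbered 4 between the sides with median centring (5.43% of all probes), against 7 (6.7%), and 4 for occluded against normal without normalization (3.8%), against 9 (6.67%). For open against normal they numbered 1 with the median of the repeat arrays (4.49%), without normalization (2.21%), without the dimmest 30% (3.18%) and with a floor at 16 (3.31%), against 2 (4.27%). The median over the members ranged from -0.132 to 0.0202 between the sides with a replicate left out, the lowest without replicate 2, and was 0.123 for open against normal without normalization. Signal close to background limits Epha6, Ntn4, Efna2, Plxna1, Unc5d, Sema4b and the dimmer Epha7 probe.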
